A study of Rattus norvegicus with 15 samples.

Results

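The 38 genes described here take up fatty acids, bind and activate them, carry them into mitochondria, oxidise them, use ketone bodies, or regulate these steps. They were chosen by name, and each gene was matched by its symbol to the table of 32623 rat genes. Of the 38 genes, 37 had a row and 35 passed the filter on low counts, among 15417 genes tested in the diet comparisons. Cd36, a fatty acid translocase, was not analysed here. Fabp4, the adipocyte fatty acid binding protein, held 4 counts over all libraries, and Pparg, the adipogenic member of the PPAR family, held 9. Both were left out of the tests, with 0 to 0.171 CPM and 0 to 0.264 CPM in single libraries, where 3 counts in one library equal 0.317 to 0.554 CPM.

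Wistar rat mothers were fed a high-fat chow whose fat supplied 60% of its calories (HFD) or normal chow (control), and chow-fed males sired the litters. RNA was taken from the frontal cortex of embryos at 3 ages, E14.5, then E16.5, then E18.5 (embryonic days), and freed of ribosomal RNA before sequencing. Each stage had 2 HFD and 3 control libraries (15 altogether), each made, according to the methods, from the pooled cortices of 1 litter. The animals carried no transgene or induced mutation, and the diet also made the mothers obese, so diet and obesity cannot be told apart.

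Long-chain fatty acids enter cells through transporters and are trapped as acyl-CoA esters by acyl-CoA synthetases. The carnitine shuttle moves the acyl groups across the mitochondrial membranes, and beta-oxidation then shortens the chain in repeated turns of dehydrogenation, hydration, dehydrogenation and thiolysis, passing electrons to the respiratory chain. Mature neurons rely mostly on glucose and lactate, whereas neural stem cells and astrocytes are known to oxidise fatty acids, and the suckling brain burns ketone bodies.

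Libraries held 5598195 to 9529978 counts. Each level is in CPM, the count per 1000000 counts of its library after TMM adjustment, and levels are compared between libraries for 1 gene, never between genes. The library labelled E18.5 Control replicate 1 stood apart from its stage. Over the 35 tested genes its levels lay on average 0.27 log2 units from the E14.5 mean, 0.45 from the E16.5 mean and 0.64 from the E18.5 mean of the other libraries. Its summed head mesenchyme markers (9 genes, Twist1 and collagens among them) reached 4801 CPM, against 501 to 1261 CPM in the other E18.5 libraries, and its 8 cortical neuron markers reached 1651 CPM, against 4633 to 5058 CPM. Stage comparisons were therefore fitted to the other 14 libraries (15354 genes tested) and diet comparisons to all 15. Values of the opposite choice are given for some of the results only. Medians of the 35 genes are given for 1 choice, and a value given for 1 choice may differ under the other. E18.5 ranges and overlaps set against E14.5 below leave that library out as well.

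The 5 E14.5 libraries also differed from the later ones in tissue content. Head mesenchyme markers summed to 1825 to 5734 CPM at E14.5, 437 to 1091 CPM at E16.5 and 501 to 1261 CPM in the other 4 E18.5 libraries, and in each library no more than 1 of these markers was at 0. The 6 lens markers summed to 185 to 394 CPM at E14.5 and to no more than 5.20 CPM in the other libraries apart from E18.5 Control replicate 1 (209 CPM). Cortical neuron markers summed to 872 to 2048 CPM, 3242 to 3810 CPM and 4633 to 5058 CPM at the 3 stages, and 8 radial glia markers to 1835 to 2212 CPM, 1546 to 1967 CPM and 1121 to 1238 CPM. Surface epithelium markers summed to 49.5 to 199 CPM at E14.5, 6.83 to 21.6 CPM at E16.5 and 10.1 to 31.6 CPM in the other 4 E18.5 libraries. Apart from E18.5 Control replicate 1, the mesenchyme, lens, epithelium and neuron sums separated E14.5 from both later stages. Radial glia sums overlapped between E14.5 and E16.5, and both lay above E18.5. Neuron sums also separated E16.5 from E18.5, where the mesenchyme, lens and epithelium sums overlapped. The part of these markers in the stage differences was not tested. In bulk tissue, fewer cells of a type and less RNA per cell cannot be told apart.

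Between E14.5 and E18.5 the pathway split by role. Genes of uptake and activation and the Cpt1 genes were mostly higher at E18.5, and genes of beta-oxidation were mostly lower. Averaged over both diets, 27 of 35 genes changed, 11 higher and 16 lower, where 27.0% of all genes tested were higher and 31.6% lower (edgeR quasi-likelihood test, adjusted p below 0.05). The median log2 fold change of the 35 genes was -0.16, against -0.07 over all genes. By role, 6 of 8 uptake and activation genes rose and 1 fell, 3 of 5 shuttle genes rose and 1 fell, and 12 of 15 beta-oxidation genes fell with none higher. One ketone gene rose and the other fell, and among 5 tested regulators 1 rose and 1 fell. In the levels themselves, 11 genes were higher in all 4 E18.5 libraries than in all 5 E14.5 libraries, beside 25.0% of all genes, and 13 were lower, beside 23.2%.

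**Figure D1:**
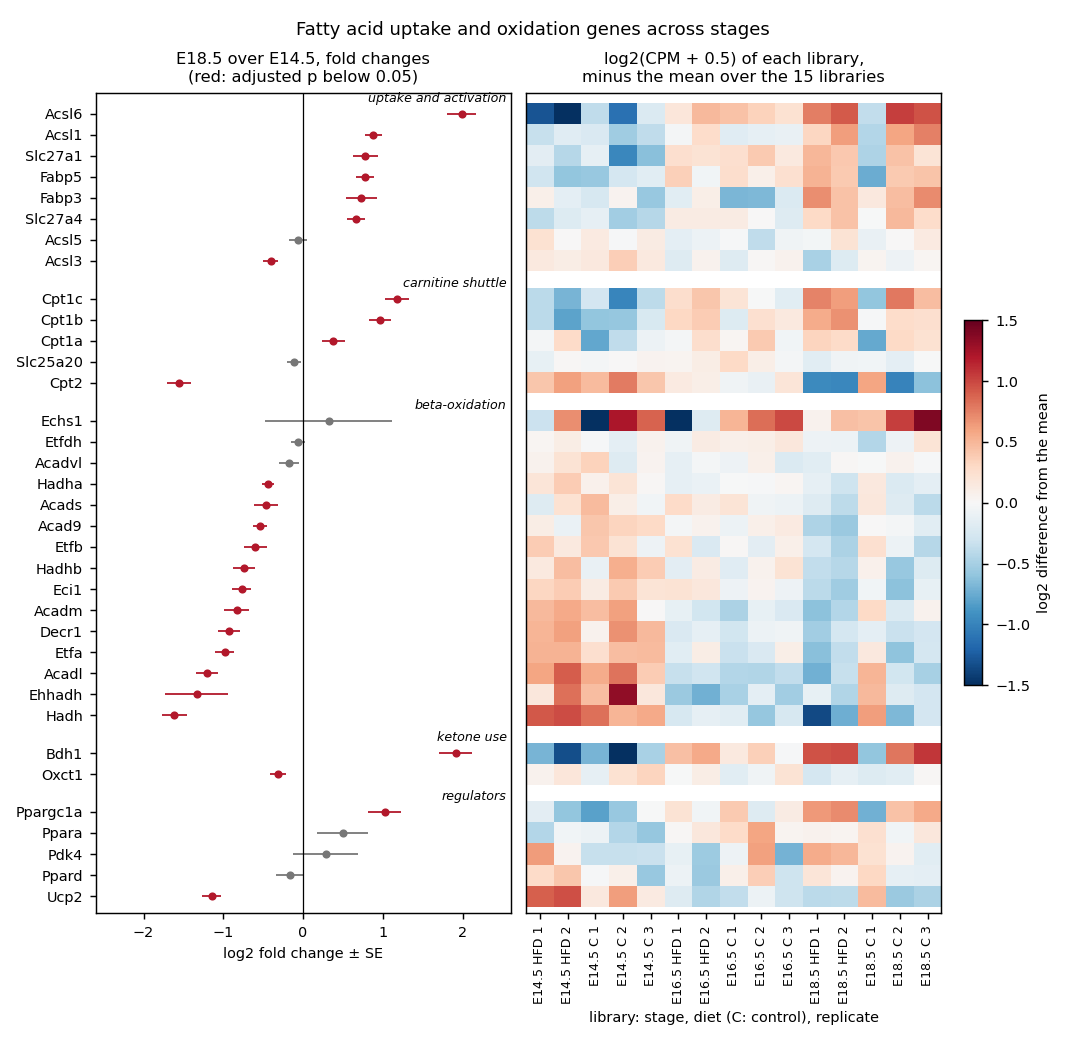
Left, log2 fold change ± SE of the 35 tested genes, E18.5 over E14.5 averaged over diets in 14 libraries, grouped by role and sorted by size (red, adjusted p below 0.05; grey, not past it). Right, log2(CPM + 0.5) of each gene in each of the 15 libraries minus its mean over them, with HFD left of control at each stage and values past the ends of the colour scale (Echs1 at 0 among them) drawn in its end colours. The 12 beta-oxidation genes in red lie left of 0, and the column of E18.5 Control replicate 1 has the colours of the E14.5 columns for most genes.

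Acsl6, an acyl-CoA synthetase of neurons that favours docosahexaenoic acid, had the largest rise of the 35 genes. Acsl6 in HFD libraries measured 10.4 and 6.34 CPM at E14.5, 29.8 and 37.0 CPM at E16.5 and 45.2 and 50.3 CPM at E18.5. For Acsl6 the control libraries had 20.0, 11.8 and 22.5 CPM at E14.5, 35.8, 33.4 and 30.9 CPM at E16.5, and 54.3 and 51.4 CPM in E18.5 replicates 2 and 3, with 20.2 CPM in E18.5 Control replicate 1. Levels in the other E18.5 libraries did not overlap those at E14.5, with a log2 fold change of 1.99 ± 0.18 (SE, edgeR adjusted p = 2.79e-06). The promoter window of Acsl6, shown because its gene rose most, holds the GC box letters CCGCCC once, in capitals (chr10:38951911-38952210, plus strand).
Acsl6: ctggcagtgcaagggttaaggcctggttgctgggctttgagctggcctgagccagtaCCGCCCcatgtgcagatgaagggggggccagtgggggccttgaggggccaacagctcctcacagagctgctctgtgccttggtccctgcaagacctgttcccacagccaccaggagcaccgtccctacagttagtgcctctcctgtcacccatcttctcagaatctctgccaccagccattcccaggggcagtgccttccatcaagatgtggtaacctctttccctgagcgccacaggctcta

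Acsl1, the main long-chain acyl-CoA synthetase of oxidative tissues, rose by 0.88 ± 0.11 log2 units (edgeR adjusted p = 2.58e-05). Acsl1 in HFD libraries measured 13.8 and 15.4 CPM at E14.5, 17.2 and 21.5 CPM at E16.5 and 22.2 and 27.5 CPM at E18.5. For Acsl1 the control libraries had 15.03, 12.1 and 13.4 CPM at E14.5, 15.5, 15.999 and 16.2 CPM at E16.5, and 26.8 and 30.1 CPM in E18.5 replicates 2 and 3, with 12.9 CPM in E18.5 Control replicate 1. E16.5 levels, 15.5 to 21.5 CPM, lay between those of E14.5 and of every E18.5 library other than Control replicate 1. The part of the rise between E16.5 and E18.5 did not pass the test in HFD (0.38 ± 0.16, adjusted p = 0.205) and passed in control (0.83 ± 0.15, adjusted p = 0.00517). The difference between the diets over this step was not tested alone. Acsl1 did not pass the joint test, given below, of whether the diet effect differed between stages.

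Acsl3, the synthetase that sits on nascent lipid droplets, moved the other way. Acsl3 in HFD libraries measured 74.0 and 72.1 CPM at E14.5, 58.2 and 69.5 CPM at E16.5 and 47.4 and 57.8 CPM at E18.5. For Acsl3 the control libraries had 74.3, 86.4 and 73.9 CPM at E14.5, 58.0, 67.3 and 69.5 CPM at E16.5, and 63.3 and 67.7 CPM in E18.5 replicates 2 and 3, with 68.7 CPM in E18.5 Control replicate 1. It fell by 0.41 ± 0.09 on the log2 scale (edgeR adjusted p = 0.00200), and no E18.5 library of the 4 reached the lowest at E14.5. Acsl5, the synthetase of intestine and liver mitochondria, ranged over 11.1 to 17.3 CPM in all 15 libraries and did not pass (-0.06 ± 0.12, adjusted p = 0.677).

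Fabp5, the epidermal-type fatty acid binding protein of neural progenitors and neurons, rose early. Fabp5 in HFD libraries measured 111 and 90.4 CPM at E14.5, 175 and 131 CPM at E16.5 and 197 and 179 CPM at E18.5. For Fabp5 the control libraries had 92.4, 114 and 122 CPM at E14.5, 164, 145 and 162 CPM at E16.5, and 180.0 and 184 CPM in E18.5 replicates 2 and 3, with 81.5 CPM in E18.5 Control replicate 1. The other E18.5 libraries did not overlap those at E14.5 (0.77 ± 0.11, edgeR adjusted p = 7.11e-05), and reads shared with retrotransposed copies of this gene could not be told apart. Fabp3, the heart-type binding protein, was higher at E18.5 as well. Fabp3 in HFD libraries measured 5.10 and 4.23 CPM at E14.5, 4.19 and 5.15 CPM at E16.5 and 8.04 and 6.64 CPM at E18.5, and in control libraries 3.93, 4.94 and 3.03 CPM at E14.5, 2.77, 2.78 and 4.03 CPM at E16.5, and 6.74 and 8.07 CPM in E18.5 replicates 2 and 3, with 5.36 CPM in E18.5 Control replicate 1. Fabp3 rose by 0.73 ± 0.20 (adjusted p = 0.00633), with the control step from E16.5 at 1.18 ± 0.27 (adjusted p = 0.0166).

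Slc27a4, a fatty acid transport protein with synthetase activity, was higher at E18.5 in each of the 4 libraries. Slc27a4 in HFD libraries measured 42.3 and 48.1 CPM at E14.5, 60.5 and 60.6 CPM at E16.5 and 68.1 and 75.5 CPM at E18.5. For Slc27a4 the control libraries had 50.4, 38.3 and 41.1 CPM at E14.5, 60.6, 55.5 and 48.4 CPM at E16.5, and 78.0 and 67.3 CPM in E18.5 replicates 2 and 3, with 55.5 CPM in E18.5 Control replicate 1. Its log2 fold change was 0.67 ± 0.11 (edgeR adjusted p = 2.09e-04). Slc27a1, the insulin-responsive transporter of muscle and fat, rose by 0.78 ± 0.15 (adjusted p = 8.36e-04), with 33.2 to 40.9 CPM in the 4 E18.5 libraries and 14.3 to 26.3 CPM at E14.5. In the current rat annotation Slc27a1 overlaps Pgls, Fabp3 overlaps Zcchc17, Acsl5 overlaps Zdhhc6 and Ppara overlaps Cdpf1. Acsl3 and Slc25a20 each overlap a protein-coding gene named only by a locus number. Without strand, reads shared by such overlapping genes could not be told apart.

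In the carnitine shuttle the 3 Cpt1 genes rose and Cpt2 fell. Cpt1c, the neuronal form that sits in the endoplasmic reticulum and has little transferase activity, rose by 1.18 ± 0.15 (edgeR adjusted p = 3.60e-05). Cpt1c in HFD libraries measured 16.8 and 13.6 CPM at E14.5, 27.0 and 30.1 CPM at E16.5 and 37.8 and 34.7 CPM at E18.5. For Cpt1c the control libraries had 18.4, 11.0 and 16.9 CPM at E14.5, 25.9, 22.3 and 19.8 CPM at E16.5, and 39.1 and 31.1 CPM in E18.5 replicates 2 and 3, with 14.7 CPM in E18.5 Control replicate 1. All 4 E18.5 libraries lay above all 5 at E14.5.

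Cpt1b, the muscle form, rose by 0.97 ± 0.13 (edgeR adjusted p = 5.87e-05). Skeletal muscle markers summed to 6.06 to 13.1 CPM in the 4 E18.5 libraries and to 8.51 to 138 CPM at E14.5, and their part was not tested. Cpt1b in HFD libraries measured 8.80 and 6.56 CPM at E14.5, 14.7 and 15.5 CPM at E16.5 and 17.6 and 19.2 CPM at E18.5. For Cpt1b the control libraries had 7.68, 7.69 and 9.91 CPM at E14.5, 10.2, 14.1 and 13.1 CPM at E16.5, and 14.4 and 14.1 CPM in E18.5 replicates 2 and 3, with 11.7 CPM in E18.5 Control replicate 1. Cpt1a, the liver form and the rate-setting entry step in most tissues, changed least of the 3. Cpt1a in HFD libraries measured 14.7 and 18.504 CPM at E14.5, 14.7 and 18.1 CPM at E16.5 and 19.2 and 18.52 CPM at E18.5, and in control libraries 8.54, 11.5 and 14.1 CPM at E14.5, 15.3, 19.9 and 14.54 CPM at E16.5, and 18.6 and 17.7 CPM in E18.5 replicates 2 and 3, with 8.67 CPM in E18.5 Control replicate 1. Its rise of 0.38 ± 0.15 (adjusted p = 0.0421) was lost when E18.5 Control replicate 1 was included (0.30 ± 0.21, adjusted p = 0.264) and held in 3 of 9 fits that each left out 1 library (E14.5 HFD replicate 2, E14.5 Control replicate 1 or E14.5 Control replicate 3). The call for Cpt1a was also lost with upper-quartile factors.

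Cpt2, which releases acyl-CoA inside the matrix, fell. Cpt2 in HFD libraries measured 11.8 and 13.6 CPM at E14.5, 9.64 and 9.38 CPM at E16.5 and 4.28 and 4.19 CPM at E18.5. For Cpt2 the control libraries had 12.3, 15.4 and 11.8 CPM at E14.5, 8.31, 8.07 and 10.1 CPM at E16.5, and 4.10 and 5.54 CPM in E18.5 replicates 2 and 3, with 13.4 CPM in E18.5 Control replicate 1. The other E18.5 libraries did not overlap those at E14.5 (-1.56 ± 0.15, edgeR adjusted p = 3.75e-06), and every E16.5 library lay between them. The step from E14.5 to E16.5 did not pass in HFD (-0.49 ± 0.20, adjusted p = 0.0936) and passed in control (-0.60 ± 0.17, adjusted p = 0.0240). The difference between the diets over this step was not tested alone. Cpt2 did not pass the joint test, given below, of whether the diet effect differed between stages. Slc25a20, the carnitine-acylcarnitine exchanger, stayed within 30.5 to 42.1 CPM over all 15 libraries and did not pass (-0.12 ± 0.09, adjusted p = 0.270).

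**Figure D2:**
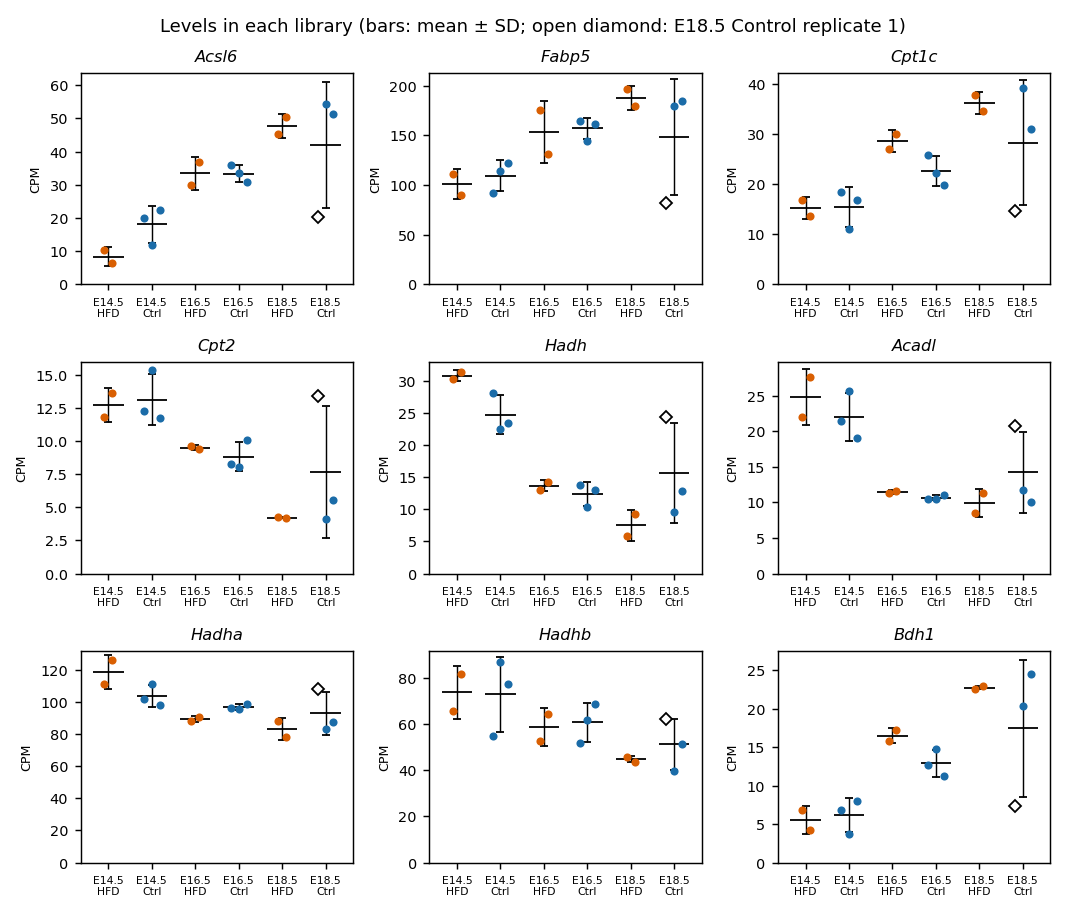
CPM of 9 genes in each library (points), with the group mean ± SD over 2 HFD or 3 control libraries (bars), HFD in orange left of control in blue at each stage. The open diamond is E18.5 Control replicate 1, included in the mean and SD. Acsl6, Fabp5, Cpt1c and Bdh1 climb with stage, Cpt2, Hadh, Acadl, Hadha and Hadhb descend, and the diamond sits within or next to the E14.5 points in each panel.

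The fall in beta-oxidation was led by Hadh, the short-chain 3-hydroxyacyl-CoA dehydrogenase of the third reaction. Hadh in HFD libraries measured 30.2 and 31.4 CPM at E14.5, 13.1 and 14.3 CPM at E16.5 and 5.82 and 9.20 CPM at E18.5. For Hadh the control libraries had 28.2, 22.5 and 23.4 CPM at E14.5, 13.9, 10.3 and 13.1 CPM at E16.5, and 9.65 and 12.9 CPM in E18.5 replicates 2 and 3, with 24.4 CPM in E18.5 Control replicate 1. No E18.5 library of the 4 overlapped E14.5 (-1.61 ± 0.16, edgeR adjusted p = 3.72e-06). The promoter window of Hadh, shown because its gene fell most, holds CCGCCC 3 times, in capitals (chr2:222504397-222504696, minus strand).
Hadh: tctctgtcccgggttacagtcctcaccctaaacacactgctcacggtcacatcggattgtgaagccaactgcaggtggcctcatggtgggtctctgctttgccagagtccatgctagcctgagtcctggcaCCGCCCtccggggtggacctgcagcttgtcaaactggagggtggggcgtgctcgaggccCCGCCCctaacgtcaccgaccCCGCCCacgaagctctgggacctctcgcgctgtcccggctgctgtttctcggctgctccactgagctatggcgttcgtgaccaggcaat

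Of the acyl-CoA dehydrogenases, which catalyse the first reaction for chains of different length, 4 of 5 fell. Acadl, for long chains, showed the largest fall of them. Acadl in HFD libraries measured 22.0 and 27.6 CPM at E14.5, 11.3 and 11.6 CPM at E16.5 and 8.55 and 11.3 CPM at E18.5. For Acadl the control libraries had 21.5, 25.7 and 19.0 CPM at E14.5, 10.5, 10.4 and 11.0 CPM at E16.5, and 11.8 and 10.1 CPM in E18.5 replicates 2 and 3, with 20.8 CPM in E18.5 Control replicate 1. All later libraries apart from E18.5 Control replicate 1 lay under the lowest E14.5 library, and the log2 fold change was -1.21 ± 0.13 (edgeR adjusted p = 9.32e-06).

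Acadm, for medium chains and the enzyme lost in the commonest human oxidation disorder, fell by 0.83 ± 0.16 on the log2 scale (edgeR adjusted p = 6.63e-04), with 5.82 to 9.64 CPM at E18.5 and 9.21 to 14.3 CPM at E14.5, which overlapped in 1 library each. Acads, for short chains, had 14.6 to 16.9 CPM at E18.5 and 17.0 to 27.1 CPM at E14.5 (-0.46 ± 0.15, adjusted p = 0.0179). The call for Acads was lost with all 15 libraries (-0.33 ± 0.15, adjusted p = 0.0966), with only the groups compared and in 4 of 9 fits that each left out 1 library (E14.5 Control replicate 1, E14.5 HFD replicate 2, E18.5 Control replicate 3 or E18.5 HFD replicate 2). Acadvl, the very-long-chain enzyme of the inner membrane, did not pass (-0.18 ± 0.12, adjusted p = 0.235), at 19.7 to 29.5 CPM in all 15 libraries. Acad9, a dehydrogenase that also serves in the assembly of respiratory complex I, fell by 0.53 ± 0.09 (adjusted p = 1.99e-04) and is given in full with the diet comparisons.

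The electrons of that first reaction pass through electron transfer flavoprotein, made of Etfa and Etfb, to Etfdh. Etfa in HFD libraries measured 34.2 and 34.2 CPM at E14.5, 20.9 and 25.6 CPM at E16.5 and 15.1 and 18.2 CPM at E18.5. For Etfa the control libraries had 28.2, 32.7 and 33.1 CPM at E14.5, 18.7, 20.0 and 25.3 CPM at E16.5, and 15.3 and 19.5 CPM in E18.5 replicates 2 and 3, with 26.5 CPM in E18.5 Control replicate 1. Both flavoprotein subunits fell, Etfa with a log2 fold change of -0.98 ± 0.12 (edgeR adjusted p = 1.81e-05) and Etfb of -0.60 ± 0.15 (adjusted p = 0.00419), without overlap between the other E18.5 libraries and E14.5. Etfdh, the membrane dehydrogenase that takes their electrons, did not pass (-0.07 ± 0.09, adjusted p = 0.530).

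Hadha and Hadhb encode the alpha and beta subunits of the mitochondrial trifunctional protein, and both fell. Hadha in HFD libraries measured 111 and 126 CPM at E14.5, 88.3 and 90.6 CPM at E16.5 and 87.9 and 78.1 CPM at E18.5, and in control libraries 102, 111 and 98.4 CPM at E14.5, 96.2, 95.4 and 99.0 CPM at E16.5, and 83.3 and 87.3 CPM in E18.5 replicates 2 and 3, with 108 CPM in E18.5 Control replicate 1. Hadhb in HFD libraries measured 65.6 and 81.6 CPM at E14.5, 52.6 and 64.3 CPM at E16.5 and 45.5 and 43.7 CPM at E18.5, and in control libraries 54.8, 86.5 and 77.2 CPM at E14.5, 51.9, 61.6 and 68.6 CPM at E16.5, and 39.8 and 51.2 CPM in E18.5 replicates 2 and 3, with 62.2 CPM in E18.5 Control replicate 1. Neither overlapped between the other E18.5 libraries and E14.5, with log2 fold changes of -0.44 ± 0.08 for Hadha (edgeR adjusted p = 2.80e-04) and -0.74 ± 0.14 for Hadhb (adjusted p = 5.57e-04).

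These genes lie head to head on chromosome 6 in GRCr8, their annotated starts 301 bases apart, so their promoter windows (250 bases before to 50 after the start, from RefSeq) share 200 bases (chr6:31907551-31907750). Of 33469 windows in the table, 10.2% overlap a window of another gene on the opposite strand. The Hadha window is shown because both subunits moved together, with the shared bases in capitals (chr6:31907551-31907850, plus strand).
Hadha: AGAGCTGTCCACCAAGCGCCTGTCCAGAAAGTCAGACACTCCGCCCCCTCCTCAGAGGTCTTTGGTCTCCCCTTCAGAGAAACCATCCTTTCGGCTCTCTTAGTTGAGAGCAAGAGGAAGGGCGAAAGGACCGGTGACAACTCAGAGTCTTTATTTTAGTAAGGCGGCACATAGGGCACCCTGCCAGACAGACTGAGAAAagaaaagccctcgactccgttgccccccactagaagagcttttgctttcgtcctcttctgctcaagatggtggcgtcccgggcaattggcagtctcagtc

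Decr1, the auxiliary reductase for polyunsaturated chains, fell as well. Decr1 in HFD libraries measured 13.4 and 14.6 CPM at E14.5, 7.86 and 8.46 CPM at E16.5 and 6.33 and 7.69 CPM at E18.5. For Decr1 the control libraries had 9.73, 15.3 and 13.3 CPM at E14.5, 7.57, 8.76 and 8.92 CPM at E16.5, and 7.27 and 7.59 CPM in E18.5 replicates 2 and 3, with 8.35 CPM in E18.5 Control replicate 1. The stages did not overlap (-0.93 ± 0.14, edgeR adjusted p = 1.15e-04). Eci1, the isomerase for unsaturated chains, fell by 0.77 ± 0.12 (adjusted p = 1.25e-04), and Ehhadh, the peroxisomal bifunctional enzyme, fell by 1.33 ± 0.40 (adjusted p = 0.0118). Ehhadh measured only 0.582 to 0.855 CPM at E18.5 and 1.16 to 3.21 CPM at E14.5. Its call was lost without E14.5 HFD replicate 2 or without E18.5 HFD replicate 2.

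Echs1, the short-chain enoyl-CoA hydratase of the second reaction, could not be read with confidence. Echs1 in HFD libraries measured 5.91 and 12.5 CPM at E14.5, 0 and 6.47 CPM at E16.5 and 7.87 and 10.5 CPM at E18.5. For Echs1 the control libraries had 0, 18.1 and 14.3 CPM at E14.5, 10.9, 13.8 and 15.4 CPM at E16.5, and 15.9 and 20.6 CPM in E18.5 replicates 2 and 3, with 10.2 CPM in E18.5 Control replicate 1. It had 0 counts in E14.5 Control replicate 1 and in E16.5 HFD replicate 1, where 3 counts equal 0.512 and 0.380 CPM, while no other library was under 5.91 CPM. Replicates of 1 group thus ranged from 0 to 18.1 CPM, and no comparison of Echs1 passed (0.32 ± 0.80 for stage, edgeR adjusted p = 0.758).

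The ketone-using enzymes moved apart. Bdh1, which turns 3-hydroxybutyrate into acetoacetate, had the second largest rise of the 35 genes. Bdh1 in HFD libraries measured 6.83 and 4.23 CPM at E14.5, 15.9 and 17.2 CPM at E16.5 and 22.6 and 22.9 CPM at E18.5. For Bdh1 the control libraries had 6.83, 3.67 and 8.04 CPM at E14.5, 12.7, 14.7 and 11.3 CPM at E16.5, and 20.4 and 24.6 CPM in E18.5 replicates 2 and 3, with 7.41 CPM in E18.5 Control replicate 1. The other E18.5 libraries did not overlap those at E14.5 (1.91 ± 0.20, edgeR adjusted p = 7.54e-06).

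Oxct1, the transferase that activates acetoacetate and the committed step of ketone use, was lower at E18.5 by a small margin. Oxct1 in HFD libraries measured 117 and 127 CPM at E14.5, 112 and 121 CPM at E16.5 and 92.9 and 101 CPM at E18.5. For Oxct1 the control libraries had 102, 131 and 141 CPM at E14.5, 99.2, 107 and 129.5 CPM at E16.5, and 99.7 and 114 CPM in E18.5 replicates 2 and 3, with 96.6 CPM in E18.5 Control replicate 1. The stages overlapped (-0.32 ± 0.10, edgeR adjusted p = 0.0176), and the call held in 6 of 9 fits that each left out 1 library, all but those without E14.5 HFD replicate 2, E18.5 HFD replicate 1 or E18.5 Control replicate 2. The call for Oxct1 was also lost with no filter on low counts and with only the groups compared.

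Among the regulators, Ucp2, a mitochondrial carrier of the uncoupling protein family found in proliferating cells, fell. Ucp2 in HFD libraries measured 56.3 and 59.2 CPM at E14.5, 26.1 and 21.8 CPM at E16.5 and 22.6 and 22.8 CPM at E18.5. For Ucp2 the control libraries had 33.6, 46.6 and 33.0 CPM at E14.5, 23.1, 28.2 and 24.1 CPM at E16.5, and 20.2 and 21.4 CPM in E18.5 replicates 2 and 3, with 42.1 CPM in E18.5 Control replicate 1. The other E18.5 libraries did not overlap those at E14.5 (-1.15 ± 0.12, edgeR adjusted p = 6.44e-06).

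Ppargc1a, the coactivator PGC-1alpha that drives mitochondrial biogenesis, rose by 1.02 ± 0.21 (edgeR adjusted p = 9.59e-04). Ppargc1a in HFD libraries measured 4.87 and 3.49 CPM at E14.5, 6.47 and 5.28 CPM at E16.5 and 8.90 and 9.32 CPM at E18.5. For Ppargc1a the control libraries had 2.90, 3.56 and 5.48 CPM at E14.5, 7.39, 4.73 and 6.05 CPM at E16.5, and 7.67 and 8.43 CPM in E18.5 replicates 2 and 3, with 3.15 CPM in E18.5 Control replicate 1. All 4 E18.5 libraries lay above the 5 at E14.5.

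Ppara, the fatty acid sensing receptor that induces oxidation in liver, was near 1 CPM throughout. Ppara in HFD libraries measured 0.695 and 1.06 CPM at E14.5, 1.14 and 1.32 CPM at E16.5 and 1.197 and 1.16 CPM at E18.5. For Ppara the control libraries had 1.02, 0.689 and 0.583 CPM at E14.5, 1.48, 1.95 and 1.17 CPM at E16.5, and 1.06 and 1.33 CPM in E18.5 replicates 2 and 3, with 1.42 CPM in E18.5 Control replicate 1. The 4 E18.5 libraries lay at or just above the highest E14.5 level, but the change did not pass (0.50 ± 0.32, edgeR adjusted p = 0.203).

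Ppard, the widely expressed receptor of the family, did not pass (-0.16 ± 0.18, edgeR adjusted p = 0.462). Ppard in HFD libraries measured 20.2 and 22.1 CPM at E14.5, 15.5 and 11.0 CPM at E16.5 and 18.8 and 17.0 CPM at E18.5. For Ppard the control libraries had 16.2, 17.4 and 11.0 CPM at E14.5, 17.5, 21.4 and 13.2 CPM at E16.5, and 14.9 and 14.8 CPM in E18.5 replicates 2 and 3, with 20.5 CPM in E18.5 Control replicate 1. Pdk4, the kinase that shuts pyruvate dehydrogenase when fat is burned, was near 1 CPM. Pdk4 in HFD libraries measured 1.85 and 1.06 CPM at E14.5, 0.888 and 0.528 CPM at E16.5 and 1.71 and 1.63 CPM at E18.5, and in control libraries 0.683, 0.689 and 0.699 CPM at E14.5, 0.924, 1.81 and 0.425 CPM at E16.5, and 1.06 and 0.843 CPM in E18.5 replicates 2 and 3, with 1.26 CPM in E18.5 Control replicate 1. Its stage difference did not pass (0.28 ± 0.40, adjusted p = 0.573).

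RefSeq promoter windows in GRCr8 were found for 31 of the 38 genes, with 32 windows. Their median GC content was 60.5%, against 51.7% over all 33469 windows. The GC box CCGCCC stood in the windows of 20 of these genes (64.5%) and in 33.1% of all windows, both strands searched. The nuclear receptor motif AGGTCA, which forms part of PPAR response elements, stood in 5 (16.1%) and in 16.2% of all windows. Its direct repeat spaced by 1 base stood in none, and in 0.0538% of all windows. The estrogen-related receptor letters TCAAGGTCA, which contain AGGTCA, stood in none (0.433% of all windows). The cyclic AMP response element TGACGTCA, which contains none of the other motifs, stood in 2 genes, Ppargc1a and Acadm, and in 1.83% of all windows. Those windows are shown with these letters in capitals, for a gene that rose and one that fell, at chr14:63634058-63634357 (plus strand) and chr2:245542815-245543114 (minus strand).
Ppargc1a: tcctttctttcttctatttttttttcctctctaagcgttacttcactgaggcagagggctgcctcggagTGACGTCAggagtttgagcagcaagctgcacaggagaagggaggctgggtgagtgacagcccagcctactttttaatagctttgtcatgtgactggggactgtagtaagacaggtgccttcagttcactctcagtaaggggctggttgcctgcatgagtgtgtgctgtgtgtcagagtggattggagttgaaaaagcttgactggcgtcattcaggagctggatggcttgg
Acadm: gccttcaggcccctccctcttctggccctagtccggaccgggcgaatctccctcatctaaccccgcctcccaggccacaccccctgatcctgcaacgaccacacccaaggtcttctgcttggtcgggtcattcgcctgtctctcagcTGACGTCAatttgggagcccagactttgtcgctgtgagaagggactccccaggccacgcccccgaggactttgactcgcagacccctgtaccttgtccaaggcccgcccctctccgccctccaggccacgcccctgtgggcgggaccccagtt

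More genes passed the test over the step from E14.5 to E16.5 than over the step from E16.5 to E18.5. In HFD libraries 13 of 35 genes changed over that step, beside 30.5% of all genes, and in control libraries 14 changed, beside 23.4%. Of these, 11 were shared by both diets in the same direction, with Fabp5, Acsl6, Cpt1b and Bdh1 higher and Acadl, Acadm, Hadh, Decr1, Etfa, Ehhadh and Ucp2 lower at E16.5. The control E14.5 and E16.5 libraries are not those of the HFD step, so each diet gave its own estimate. Hadh fell by 1.24 ± 0.22 in HFD (edgeR adjusted p = 0.00138) and fell by 1.02 ± 0.18 in control (adjusted p = 0.00278). Acsl6 rose by 1.93 ± 0.28 in HFD (adjusted p = 5.12e-04) and by 0.86 ± 0.22 in control (adjusted p = 0.0146), and Ucp2 fell by 1.33 ± 0.17 in HFD and fell by 0.62 ± 0.14 in control (adjusted p = 3.00e-04 and 0.00957).

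Between E16.5 and E18.5 fewer genes changed. In HFD libraries 3 fell, namely Cpt2 (-1.15 ± 0.22, edgeR adjusted p = 0.0119), Acad9 (-0.52 ± 0.13, adjusted p = 0.0374) and Eci1 (-0.67 ± 0.18, adjusted p = 0.0445), where 5.87% of all genes changed. In control libraries 2 rose, Acsl1 and Fabp3, and Cpt2 fell (-0.88 ± 0.20, adjusted p = 0.0191), where 10.6% of all genes changed. These counts depended on which libraries were used. With E18.5 Control replicate 1 included, the 4 step counts became 8 and 0 in HFD and 0 and 0 in control, while the overall count from E14.5 to E18.5 was 25. The share of all genes called with that library included is not given here. Whether the loss of calls was particular to these genes therefore cannot be told.

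The diet comparison asked whether the HFD changed these genes in the embryonic cortex. None of the 35 tested genes passed the threshold at any stage, and few of all 15417 did. At E14.5 0% of all genes passed, at E16.5 0%, at E18.5 0.00649% (1 gene), and 0% averaged over stages (edgeR quasi-likelihood test, adjusted p below 0.05). At an unadjusted p below 0.05 there were 3 of the 35 genes at E14.5 (4.52% of all genes), 0 at E16.5 (1.34%), 5 at E18.5 (4.99%) and 1 averaged over stages (2.70%). Without E18.5 Control replicate 1 these counts were 5 at E14.5 (9.46% of all genes), with Cpt1a and Ppard added, 0 at E16.5, 3 at E18.5 (1.54%), with Acadm and Cpt1b no longer among them, and 3 averaged over stages (2.99%), namely Acad9, Acsl6 and Ucp2. DESeq2 called 0 of the 35 in each of these comparisons, and 22, 0, 20 and 6 of all genes, and limma-voom also called 0 of the 35. Median log2 fold changes of the 35 genes were 0.07 at E14.5, -0.02 at E16.5 and -0.09 at E18.5, against -0.02, 0.01 and -0.01 over all genes. The HFD and control libraries did not overlap for 8 of 35 genes at E14.5 (20.8% of all genes), 10 at E16.5 (17.7%) and 7 at E18.5 (18.9%). Without E18.5 Control replicate 1, which leaves 2 libraries on each side, 12 did not overlap at E18.5, 5 higher and 7 lower in HFD, beside 28.9% of all genes in either direction.

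**Figure D3:**
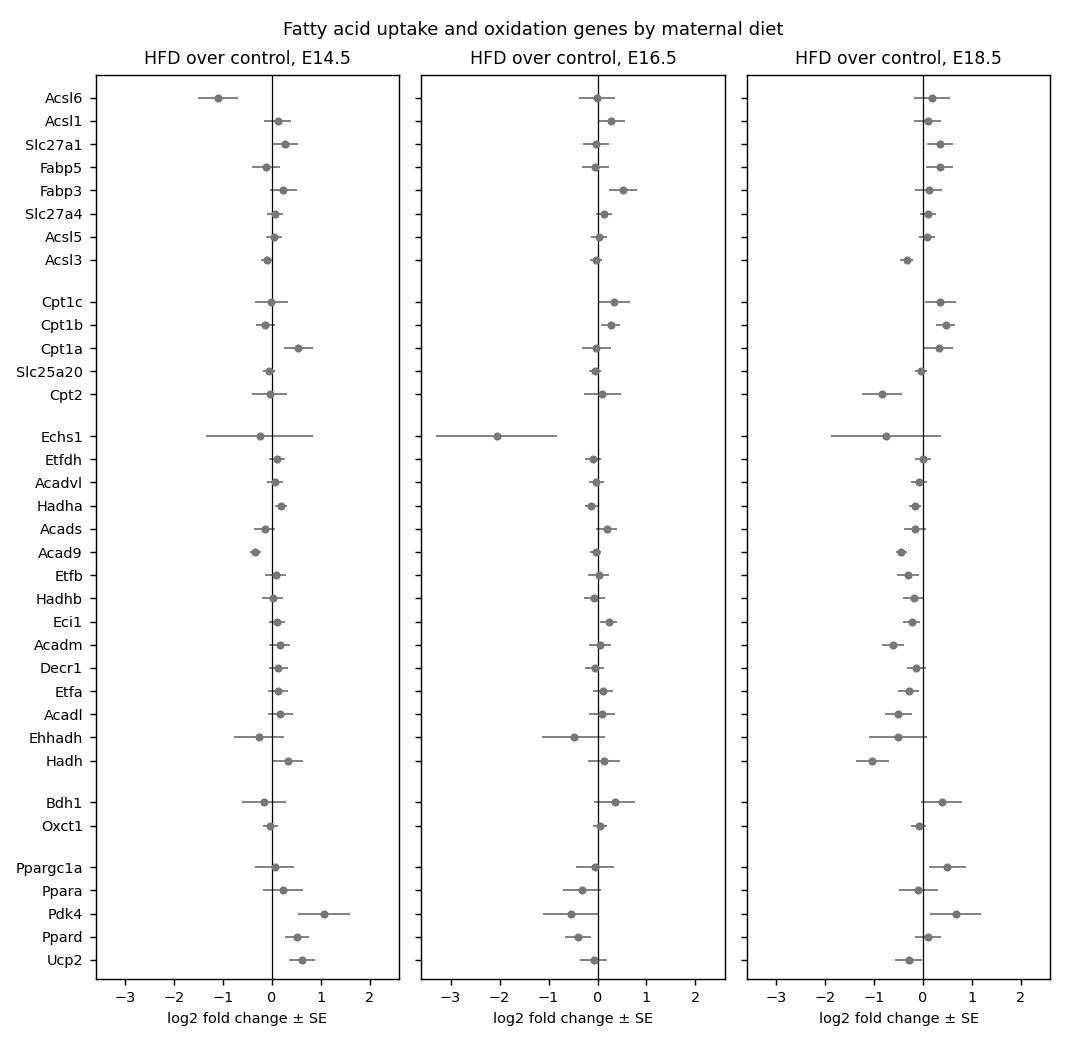
Log2 fold change ± SE of the 35 tested genes, HFD over control at each of the stages (15 libraries, edgeR), in the order of the stage plot. All points are grey, as none passed an adjusted p of 0.05, and at E18.5 the 15 beta-oxidation genes all lie at or left of 0. Of all 15417 genes tested, not drawn here, 7870 were below 0 at E18.5.

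Acad9 had the smallest p averaged over stages. Acad9 in HFD libraries measured 39.3 and 33.8 CPM at E14.5, 35.5 and 37.9 CPM at E16.5 and 26.2 and 24.6 CPM at E18.5. For Acad9 the control libraries had 48.7, 45.7 and 44.5 CPM at E14.5, 34.0, 38.5 and 39.7 CPM at E16.5, and 35.4 and 32.0 CPM in E18.5 replicates 2 and 3, with 36.2 CPM in E18.5 Control replicate 1. Both HFD libraries lay below all 3 control libraries at E14.5 and at E18.5, and the groups overlapped at E16.5. Acad9 had a log2 fold change of -0.34 ± 0.11 at E14.5 (edgeR adjusted p = 1), -0.04 ± 0.11 at E16.5 (adjusted p = 1) and -0.45 ± 0.12 at E18.5 (adjusted p = 0.821). Averaged over stages it was -0.27 ± 0.07 (adjusted p = 1.00). Without E18.5 Control replicate 1 the E18.5 value was -0.41 ± 0.13 (adjusted p = 1).

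At E18.5 the 15 beta-oxidation genes all had a log2 fold change below 0 (median -0.29), with 3 at an unadjusted p below 0.05 (Acad9, Hadh and Acadm). Over all 15417 genes tested, 7870 were below 0 (median -0.01). Without E18.5 Control replicate 1 the median of the 15 was -0.13, with 14 below 0 and 12 nearer to 0. Acad9 and Hadh then kept an unadjusted p below 0.05. Echs1, which could not be read with confidence, is among the 15, and their shared direction was not tested. Some marker sums also differed between the diets in the E18.5 libraries, and the marker medians below include control replicate 1. Without control replicate 1, head mesenchyme and surface epithelium sums did not overlap between the diets, whereas lens and neuron sums did. Head mesenchyme markers summed to 501 to 615 CPM in HFD libraries, against 824 to 1261 CPM in control replicates 2 and 3 and 4801 CPM in control replicate 1, and all 9 were lower in HFD (median log2 fold change -1.93, with 8 at an unadjusted p below 0.05). Lens markers summed to 2.91 to 3.26 CPM in HFD libraries, against 3.25 to 3.57 CPM in control replicates 2 and 3 and 209 CPM in control replicate 1. Surface epithelium markers summed to 10.1 to 11.8 CPM in HFD libraries, against 17.5 to 31.6 CPM and 146 CPM in the same control libraries. All 8 cortical neuron markers were higher in HFD (median 0.51), with sums of 4633 to 5058 CPM in HFD libraries, against 4712 to 4733 CPM and 1651 CPM in those control libraries. The part of these markers in the differences was not tested. Hadh was at 5.82 and 9.20 CPM in HFD libraries, against 9.65 and 12.9 CPM in control replicates 2 and 3 and 24.4 CPM in control replicate 1, and its log2 fold change was -1.04 ± 0.34 with all libraries (edgeR adjusted p = 0.821) and -0.57 ± 0.24 without that replicate (adjusted p = 1). Cpt2, of the shuttle, was at 4.28 and 4.19 CPM in HFD libraries, against 4.10 and 5.54 CPM and 13.4 CPM in the same control libraries, with -0.84 ± 0.40 and -0.19 ± 0.23 (adjusted p = 0.821 and 1). Acadl gave -0.50 ± 0.28 and -0.13 ± 0.20 (adjusted p = 0.821 and 1). Acadm gave -0.62 ± 0.23 and -0.48 ± 0.24, and its HFD libraries, at 5.82 and 6.64 CPM, lay below the control libraries, at 7.80 and 9.64 CPM and 11.3 CPM (adjusted p = 0.821 and 1).

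Outside beta-oxidation, Acsl3 and Cpt1b were at an unadjusted p below 0.05 at E18.5. Acsl3 measured 47.4 and 57.8 CPM in HFD libraries, against 68.7, 63.3 and 67.7 CPM in control libraries (-0.34 ± 0.13, edgeR adjusted p = 0.821). Cpt1b measured 17.6 and 19.2 CPM in HFD libraries, against 11.7, 14.4 and 14.1 CPM in control libraries (0.46 ± 0.19, adjusted p = 0.821). Neither overlapped between diets. The log2 fold change of Cpt1b without E18.5 Control replicate 1 was 0.37 ± 0.19 (adjusted p = 1) and its unadjusted p was no longer below 0.05.

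At E14.5 the other genes with an unadjusted p below 0.05 were Acsl6 and Ucp2. Acsl6 measured 10.4 and 6.34 CPM in HFD libraries, against 20.0, 11.8 and 22.5 CPM in control libraries (-1.11 ± 0.40, edgeR adjusted p = 1). Without E18.5 Control replicate 1 the value was -1.09 ± 0.26 (adjusted p = 0.250), and DESeq2 without that library, an alternative chosen after seeing the data, gave -1.10 ± 0.28 (DESeq2 adjusted p = 0.0184). That DESeq2 fit called 96 of all genes at E14.5, against 22 with all libraries. Ucp2 measured 56.3 and 59.2 CPM in HFD libraries, against 33.6, 46.6 and 33.0 CPM in control libraries (0.61 ± 0.27, adjusted p = 1). Its value without E18.5 Control replicate 1 was 0.63 ± 0.15 (edgeR adjusted p = 0.250). At that stage 2 marker sums did not overlap between the diets. Surface epithelium markers summed to 146 to 199 CPM in HFD and 49.5 to 136 CPM in control libraries, and radial glia markers to 1835 to 1910 CPM in HFD and 2140 to 2212 CPM in control libraries. Neuron markers summed to 872 to 1262 CPM in HFD and 942 to 2048 CPM in control libraries, and head mesenchyme markers to 4295 to 4876 CPM in HFD and 1825 to 5734 CPM in control libraries. All 9 head mesenchyme, 8 skeletal muscle, 7 surface epithelium and 5 lens markers tested had a log2 fold change above 0, none past an adjusted p of 0.05, and the part of these markers in the differences was not tested.

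Pdk4, a PPAR target and a common readout of fat oxidation, measured 1.85 and 1.06 CPM in HFD libraries, against 0.683, 0.689 and 0.699 CPM in control libraries at E14.5 (1.05 ± 0.53, edgeR adjusted p = 1). At E18.5 it measured 1.71 and 1.63 CPM in HFD libraries, against 1.26, 1.06 and 0.843 CPM in control libraries (0.67 ± 0.52, adjusted p = 0.821), and at E16.5 the groups overlapped (-0.54 ± 0.57). Cpt1a, another PPAR target, measured 14.7 and 18.504 CPM in HFD libraries, against 8.54, 11.5 and 14.1 CPM in control libraries at E14.5 (0.54 ± 0.30, adjusted p = 1). Both genes were separate between diets at E14.5, as were 20.8% of all genes, and neither passed. Among the tested genes of the set, 6 were higher in HFD without overlap at that stage, 2 were lower and 27 overlapped. Pdk4 rested on 16 and 10 counts in HFD libraries, against 4, 6 and 6 in control libraries. Outside the set, 18 PPAR partners, coactivators and targets were tested at E14.5. Of these, 11 were higher in HFD and 7 lower (median log2 fold change 0.06), and none passed an adjusted p of 0.05.

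The diet effect did not differ detectably between stages for any of the 35 genes. In the joint test of both interaction terms 0% of all genes passed, DESeq2 called 0 of the 35 and 13 of all genes, and 1 of the 35, Hadh, had an unadjusted p below 0.05, beside 3.91% of all genes. There were 3, Acsl6, Hadh and Ucp2, without E18.5 Control replicate 1, beside 5.22%. Hadh was higher in both HFD libraries than in all control libraries at E14.5 (0.32 ± 0.31) and lower in both at E18.5 (-1.04 ± 0.34), and the test of that difference gave an edgeR adjusted p = 1.

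**Figure D4:**
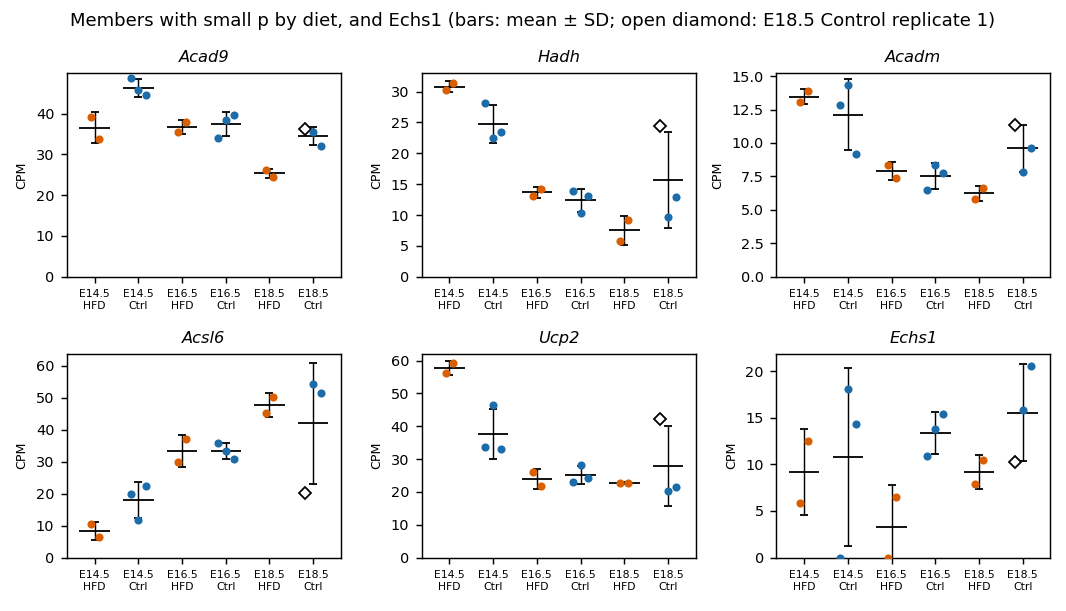
CPM of 6 genes in each library (points), with the group mean ± SD over 2 HFD or 3 control libraries (bars), HFD in orange left of control in blue. The open diamond is E18.5 Control replicate 1. Acad9 is lower in both HFD libraries at E14.5 and E18.5, the diamond lifts the E18.5 control mean of Hadh, Acadm and Ucp2, and Echs1 has 0 counts in 1 HFD and 1 control library.

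Related genes were read from lists that hold none of the 35 genes. Their counts stand beside the 27.0% of all genes that were higher at E18.5 and the 31.6% that were lower, and no list was tested as a whole. Of 19 other mitochondrial oxidation enzymes tested, 3 rose and 6 fell between E14.5 and E18.5 (median -0.20). Hsd17b10, of isoleucine and fatty acid breakdown, had 16.1 ± 1.97 CPM in 4 E18.5 libraries and 25.1 ± 0.98 CPM in 5 E14.5 libraries (SD). The log2 fold change of Hsd17b10 was -0.69 ± 0.10 (SE, edgeR adjusted p = 6.95e-05). Ivd, of leucine breakdown, had a log2 fold change of -0.64 ± 0.11 (adjusted p = 2.64e-04), and Acat1, the ketone thiolase, rose by 0.43 ± 0.08 (adjusted p = 3.79e-04).

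Of 17 peroxisomal oxidation genes, 3 rose and 4 fell (median -0.10). Acot8, a peroxisomal thioesterase, rose by 1.11 ± 0.18 (edgeR adjusted p = 1.59e-04), and Crot, which makes medium-chain acylcarnitines, had a log2 fold change of -0.84 ± 0.17 (adjusted p = 0.00118).

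Of 16 other uptake, binding and activation genes, 8 rose and 5 fell (median 0.22), among them Slc27a2, a very-long-chain transporter, at 1.72 ± 0.20 (edgeR adjusted p = 1.45e-05). Acsf2, a medium-chain synthetase, was at -1.38 ± 0.13 (adjusted p = 3.17e-06). Of 6 genes that set malonyl-CoA, the inhibitor of Cpt1, 2 rose and 2 fell. Prkaa2, a catalytic subunit of AMPK, had 43.2 ± 0.996 CPM at E18.5 and 13.4 ± 4.21 CPM at E14.5, a rise of 1.71 ± 0.15 (adjusted p = 2.33e-06). Stk11, the kinase LKB1 upstream of AMPK, rose by 0.32 ± 0.08 (adjusted p = 0.00562) and Mlycd, which breaks down malonyl-CoA, was at -0.37 ± 0.13 (adjusted p = 0.0298).

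Of 8 further ketone genes, 5 rose and 2 fell (median 0.57). Slc16a7, the neuronal monocarboxylate transporter MCT2, had 9.81 ± 1.58 CPM at E18.5 and 2.14 ± 0.751 CPM at E14.5, a rise of 2.12 ± 0.26 (edgeR adjusted p = 2.03e-05). Slc16a1, the transporter MCT1 of endothelium and glia, was at -1.10 ± 0.17 (adjusted p = 1.08e-04), and Aacs, which spends ketones on lipid synthesis, rose by 0.93 ± 0.09 (adjusted p = 4.57e-06). Of 11 lipid droplet and lipolysis genes, 8 rose and 2 fell (median 0.37), Mgll, the monoacylglycerol lipase, at 1.46 ± 0.28 (adjusted p = 6.83e-04) and Plin3, a droplet coat protein, at -2.41 ± 0.27 (adjusted p = 1.10e-05). Of 18 PPAR partners and targets, 5 rose and 6 fell (median 0.00), Rxra, the PPAR partner, at -1.71 ± 0.21 (adjusted p = 1.98e-05), Tfam, of mitochondrial DNA upkeep, at -0.84 ± 0.10 (adjusted p = 1.67e-05) and Ncoa1, a coactivator, at 1.14 ± 0.12 (adjusted p = 6.82e-06).

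By diet, no gene of these lists passed at any stage or averaged over stages. Of the 94 different genes tested, 4 had an unadjusted p below 0.05 at E14.5 (4.52% of all genes), 1 at E16.5 (1.34%), 4 at E18.5 (4.99%) and 1 averaged over stages (2.70%). The counts without E18.5 Control replicate 1 were 5 at E14.5, 1 at E16.5, 0 at E18.5 and 0 averaged over stages, beside 9.46%, 2.34%, 1.54% and 2.99% of all genes. With all libraries those at E18.5 included Acsf2 at -0.68 ± 0.29, Hsd17b10 at -0.43 ± 0.17 and Acat1 at 0.30 ± 0.13 (edgeR adjusted p = 0.821 for each of these). Adipocyte markers summed to no more than 3.42 CPM in any library.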

How the data were processed

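RNA was sequenced from 15 cortex libraries, 2 HFD and 3 control at each of 3 stages. The authors deposited 1 table of expected counts per rat Ensembl gene, unnormalised and given as whole numbers. Per the study's methods, reads were aligned with Bowtie2 to RGSC v6.0 (rn6) and counted with RSEM, while the submitters' processing notes name HTSeq, so the handling of reads shared between gene copies is uncertain. The methods cite a human annotation release, and whether reads were counted by strand was not given. DESeq2 was the study's test.

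Counts were rounded to whole numbers, filtered with filterByExpr, TMM-scaled and tested with edgeR 4.0.16 (R 4.3.3, robust quasi-likelihood), 1 mean per stage and diet, with Benjamini-Hochberg adjustment over all genes and a threshold of 0.05. SEs are the absolute log2 fold change over the square root of F. Alternatives were RLE and upper-quartile factors, other filters, DESeq2 1.42.0, limma-voom (limma 3.58.1), a replicate block, only the groups compared, and leaving out libraries. The comparison of E18.5 with E14.5 in 14 libraries was also run on simulated data, and the diet comparisons were not. Depth limits genes near 1 CPM, and floors of 3 counts cover counting error only. The genes and lists were chosen with earlier results of these data known. Genes given in every library were, per role, up to 4 with the smallest stage p and up to 2 with the smallest averaged diet p. Other pathway genes were named up to 3 per list by smallest stage p (some are not reported here), and Hadha, Hadhb and genes at an unadjusted p below 0.05 by diet were added after their values were seen. Promoters and gene neighbours came from RefSeq (GRCr8) by symbol, and no coordinates were converted.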

Additional observations from a re-analysis of the deposited data

How the results depend on the processing

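No result reversed its direction past the threshold under any alternative run. Diet comparisons kept 0 of 35 genes called under the edgeR, DESeq2 and limma-voom alternatives and without each control library, with 1 exception. DESeq2 without E18.5 Control replicate 1, chosen after seeing the data, called 1 of the 35 at E14.5 (Acsl6), where it called 96 of all genes. The overall count between E14.5 and E18.5 was 24 to 27 without single libraries and 25 with all 15.

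The counts per step, with 2 or 3 libraries a group, moved more. For control E16.5 against E14.5 (14 genes) they were 6 with only the groups compared, 0 with all 15 libraries and 6 to 17 without single libraries, the lowest without E16.5 Control replicate 1, with 8 without E14.5 Control replicate 2 or E16.5 Control replicate 2. For HFD E16.5 against E14.5 (13 genes) they were 8 with all 15 libraries and 5 to 11 without single libraries, with 5 without E14.5 HFD replicate 2 and 7 without E16.5 HFD replicate 1. For control E18.5 against E16.5 (3 genes) they were 5 with at least 10 counts in every library, 6 with DESeq2, 5 with limma-voom, 6 with only the groups compared, 0 with all 15 libraries and 1 to 2 without single libraries, with 1 without either E18.5 Control replicate 2 or 3. For HFD E18.5 against E16.5 (3 genes) they were 1 with RLE size factors, 1 with no filter on low counts, 1 with DESeq2, 0 with all 15 libraries and 0 to 1 without single libraries. With RLE size factors that last step had 370 of all genes called higher and 506 lower, against 310 and 591 with TMM. Shares of all genes called in the other fits, and in those with the replicate block below, are not given here. Whether these counts moved more than those of all genes therefore cannot be told, and the cause was not tested.

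Whether the shared replicate numbers pair the samples could not be decided. The correlation of deviations of same-numbered HFD and control libraries ran from -0.10 to 0.24, and of differently numbered ones from -0.24 to 0.11. Same-numbered correlations were positive at E14.5 and E16.5 and negative at E18.5. With 2 HFD libraries a group, their deviations from the group mean are mirror images, so these correlations are not independent. With the replicate block, 6 genes passed for control E18.5 against E16.5, 16 and 14 for the E16.5 steps in control and HFD, 2 for HFD E18.5 against E16.5, 27 between E14.5 and E18.5, and 0 by diet.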
